A study of Mus musculus with 8 samples.

Results

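The comparison set cells carrying an shRNA named for PRDM16 against cells carrying a control shRNA named sh-scr, with rosiglitazone present in both. It takes 4 of the 8 arrays of the series: those titled prdm-Rosi (the sh-PRDM16 rosi group, 2 arrays) and those titled scr-Rosi (the sh-scr rosi group, 2 arrays). The cells were adipocytes grown from the SV (stromal-vascular) fraction of the inguinal fat pad, a subcutaneous white adipose tissue of the groin, taken from male C57BL/6J mice. Rosiglitazone was given at 1 µM. The labels call the 2 arrays of a group biological replicates without naming separate animals or cultures, so p-values measure the spread between these arrays, which may be technical in part. The other 4 arrays (sh-scr and sh-PRDM16 cells without the drug, 2 arrays each) entered the estimate of spread and are set beside the main values. All values are Affymetrix mouse array intensities. Of 12393 genes with a probe set of their own, 9294 passed the filter on low values and were tested. The question was which genes depend on PRDM16 while PPARγ is activated.

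Rosiglitazone is a thiazolidinedione that binds and activates PPARγ, the nuclear receptor that directs fat cell formation. In subcutaneous white fat cells, sustained activation of PPARγ also raises a brown-fat-like programme, called browning, with genes for uncoupled respiration and fatty acid oxidation. PRDM16 is a zinc finger co-regulator that works with PPARγ, the C/EBP proteins and the co-activator PGC-1 to switch on genes of brown and beige fat cells, which burn lipid for heat. It also binds CtBP co-repressors at some genes of white fat cells and muscle.

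Median intensities were 107.9 and 100.7 on the sh-scr rosi arrays and 109.2 and 121.5 on the sh-PRDM16 rosi arrays. The knockdown arrays were thus somewhat brighter as a whole, and the median gene was 0.15 higher on the log2 scale before the arrays were centred on their medians and 0.02 higher afterwards. Counts of calls are therefore given on the deposited and on the centred scale, those with an array left out on the deposited scale alone, and changes are to be read against those medians. Replicate arrays correlated at r = 0.991 in both groups, against at most 0.984 between groups. The 3′ minus 5′ signal of the Actb control probe sets, a measure of RNA integrity, was 0.384 and 0.488 (log2) on the sh-scr rosi arrays. On the sh-PRDM16 rosi arrays it was 0.329 and 0.340. That of the Gapdh control probe sets overlapped, at -0.3456 and -0.3544 in sh-scr rosi and -0.3536 and -0.3265 in sh-PRDM16 rosi. The part of RNA integrity in the results was not tested. Of 24 tested general adipocyte genes, 8 were lower and 0 higher in the knockdown (18 and 0 on centred arrays), beside 4.62% lower and 10.6% higher among all genes, and 3 had a positive change. The adipocyte markers Fabp4 and Adipoq were bright in all 4 libraries, Fabp4 at 20249 and 21844 in sh-scr rosi and 20917 and 21800 in sh-PRDM16 rosi, and Adipoq at 13865 and 14526 against 13672 and 14230. The control and knockdown values of both genes overlapped. Prdm16, Adrb3, Plin1 and Cfd were not analysed here, so the knockdown itself was not checked against its own RNA.

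With 9294 genes tested, 981 were higher (10.6%) and 429 lower (4.62%) in sh-PRDM16 rosi than in sh-scr rosi (limma, adjusted p below 0.05 on the deposited scale). On centred arrays 1130 were higher (12.2%) and 1140 lower (12.3%), and 863 higher (9.29%) and 426 lower (4.58%) genes were called on both scales, with 0 called in opposite directions. The largest falls were in thermogenic genes and genes of macrophages, and the largest rises included the cytokine Il6 and genes of mitosis. The plot of change against level shows both ends of this range. On the deposited scale the 2 groups did not overlap for 46.5% of all genes as higher and 18.2% as lower. Statements below that groups were apart are to be read against these shares. Each array decided part of the counts: without sh-scr rosi replicate 1, sh-scr rosi replicate 2, sh-PRDM16 rosi replicate 1 and sh-PRDM16 rosi replicate 2, in that order, 627, 258, 412 and 238 genes were higher and 269, 234, 225 and 339 lower. All 30 genes with the largest changes stayed past the threshold in each of these 4 fits, with a largest adjusted p of 0.0372. Further values given for each array left out follow the same order, and the group that loses an array is then assumed to vary like the other groups.

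**Figure D1:**
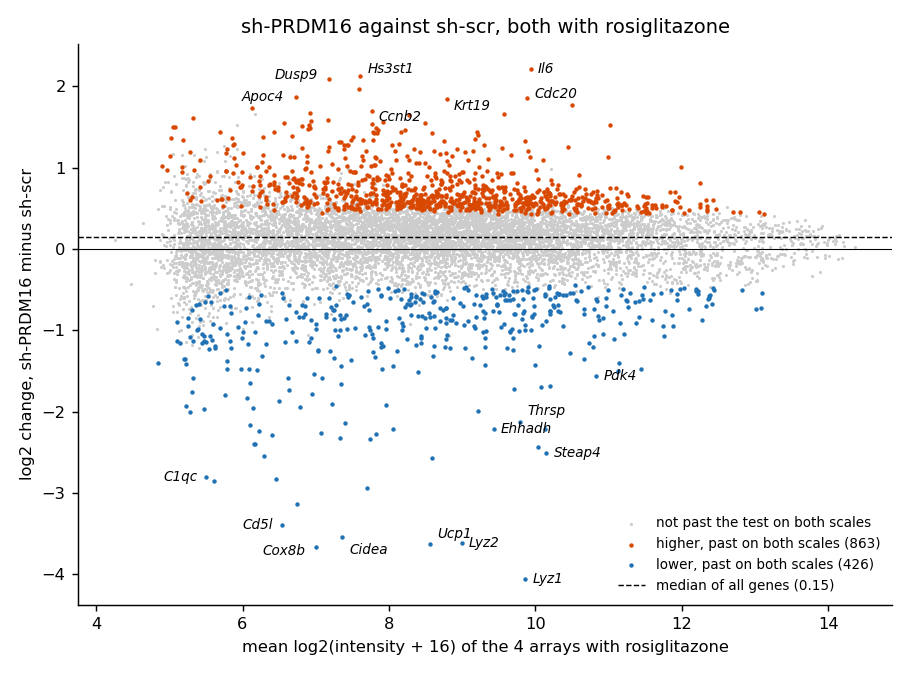
Log2 change of each of the 9294 genes tested (sh-PRDM16 rosi minus sh-scr rosi, deposited scale) against its mean log2(intensity + 16) on the 4 arrays with rosiglitazone. Orange (863 genes) and blue (426 genes) mark genes higher and lower past the test on both scales, and the dashed line is the median of all genes at 0.15. Lyz1, at -4.06, is the lowest point and Il6, at 2.21, the highest.

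**Figure D2:**
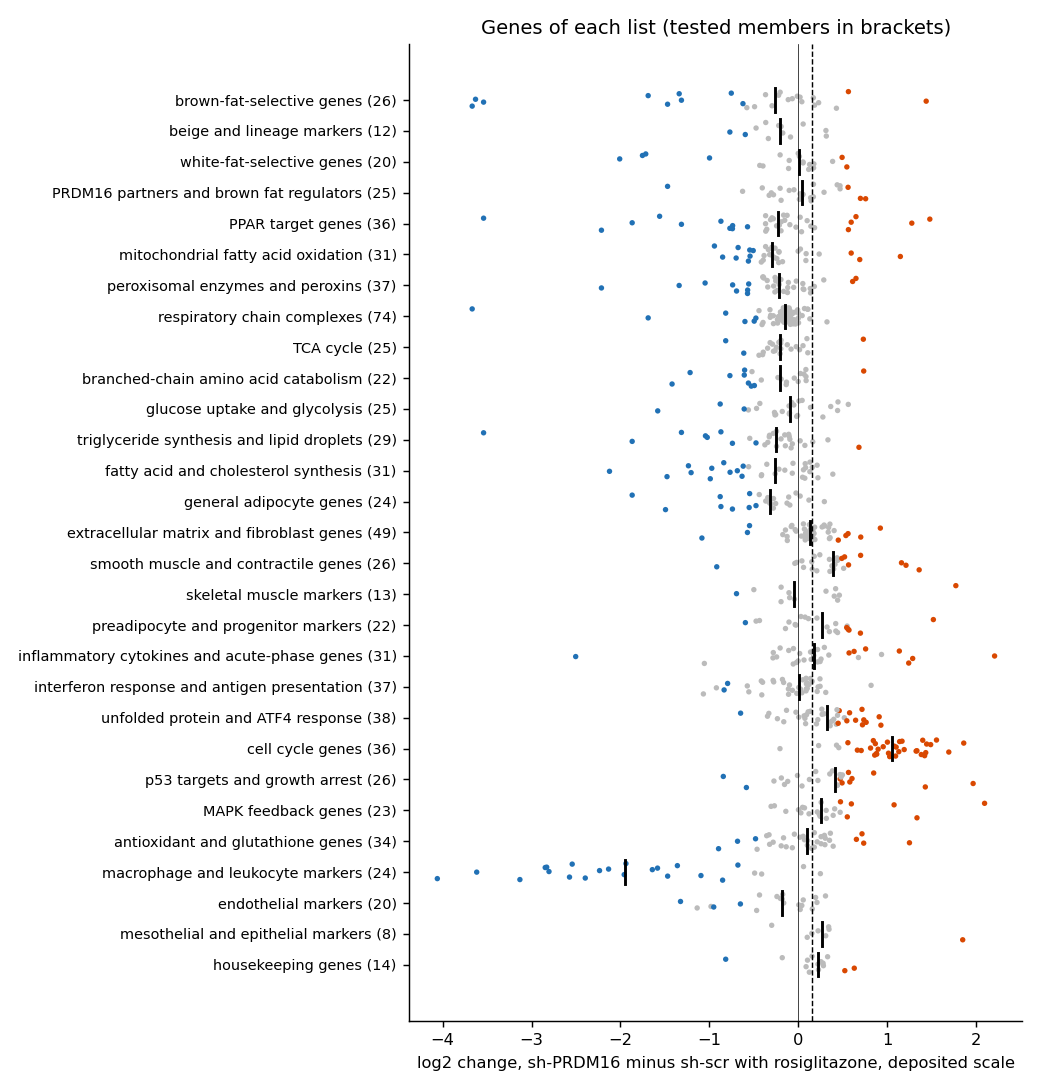
Log2 change of every tested member of each gene list, 1 point per gene, on the deposited scale. Orange and blue points passed the test as higher and lower, grey points did not, thick bars are list medians and the dashed line is the median of all genes at 0.15. The macrophage list lies to the left with a median of -1.95 and the cell cycle list to the right with a median of 1.05.

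The promoters of 4 genes at these ends are shown, a pair that fell furthest among thermogenic genes and a pair that rose among genes of mitosis. Each is the 300-base window from 250 bases before to 50 after the annotated start, 5′ to 3′ on the gene's strand, from RefSeq on GRCm38.p6. Ucp1 lies at chr8:83290098-83290397 (plus strand) and Cox8b at chr7:140900397-140900696 (minus strand), and both fell with the knockdown. Ccnb2 lies at chr9:70421505-70421804 (minus strand) and Cdc20 at chr4:118437294-118437593 (minus strand), and both rose. In Ucp1 and Cox8b, capitals mark the nuclear receptor motif AGGTCA on either strand. In Ccnb2 and Cdc20, capitals mark the cell cycle element TTTGAA and the CCAAT box on either strand, a pair of motifs chosen with the results known.
Ucp1: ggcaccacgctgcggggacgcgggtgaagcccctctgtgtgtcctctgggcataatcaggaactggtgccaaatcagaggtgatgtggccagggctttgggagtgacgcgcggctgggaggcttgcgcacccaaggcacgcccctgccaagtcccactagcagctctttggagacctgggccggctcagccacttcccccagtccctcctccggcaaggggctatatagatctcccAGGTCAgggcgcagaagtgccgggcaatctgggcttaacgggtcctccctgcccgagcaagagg
Cox8b: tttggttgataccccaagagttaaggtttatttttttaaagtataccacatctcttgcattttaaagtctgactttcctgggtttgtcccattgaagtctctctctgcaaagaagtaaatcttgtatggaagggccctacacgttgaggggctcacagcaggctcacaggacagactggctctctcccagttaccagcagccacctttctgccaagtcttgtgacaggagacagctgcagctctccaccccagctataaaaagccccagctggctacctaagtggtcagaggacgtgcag
Ccnb2: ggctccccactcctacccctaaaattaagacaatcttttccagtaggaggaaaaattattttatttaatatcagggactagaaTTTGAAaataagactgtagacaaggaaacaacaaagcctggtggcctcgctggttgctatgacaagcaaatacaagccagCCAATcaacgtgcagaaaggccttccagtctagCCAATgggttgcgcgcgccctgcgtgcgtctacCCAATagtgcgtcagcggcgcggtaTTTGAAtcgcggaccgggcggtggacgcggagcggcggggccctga
Cdc20: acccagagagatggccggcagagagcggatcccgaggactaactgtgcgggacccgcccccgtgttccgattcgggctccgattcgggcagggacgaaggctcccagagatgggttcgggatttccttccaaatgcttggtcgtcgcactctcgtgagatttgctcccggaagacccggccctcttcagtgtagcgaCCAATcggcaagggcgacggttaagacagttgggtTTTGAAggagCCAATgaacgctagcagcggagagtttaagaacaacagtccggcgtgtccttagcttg
Ucp1 held 1 AGGTCA and Cox8b 0, and neither held 2 copies as a direct repeat 1 base apart. AGGTCA was present in 16.3% and the direct repeat in 0.0396% of the 32851 promoter windows of the same length. Ccnb2 held 2 copies of TTTGAA and 3 CCAAT boxes, and Cdc20 held 1 and 2. TTTGAA was present in 17.9% and CCAAT in 37.4% of all windows. The letters describe these windows and give no evidence of binding.

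Brown fat genes of heat production were among the largest falls. Of 26 tested members of the brown-fat-selective list, 9 were lower and 2 higher on the deposited scale (11 lower and 2 higher on centred arrays), beside 4.62% lower and 10.6% higher among all genes. The list median was -0.26 against 0.15 for all genes. With 1 array left out, 8 members fell in each of the 4 fits. Ucp1, the mitochondrial uncoupling protein of brown fat, read 1295.5 and 1322 in sh-scr rosi and 81.9 and 101 in sh-PRDM16 rosi. Both control arrays were far above both knockdown arrays, a 14.3-fold ratio of means, and the change was -3.63 ± 0.23 (SE, log2, adjusted p = 2.8e-05). Cidea, a lipid droplet protein enriched in brown fat, read 510.5 and 584.6 against 29.8 and 35.1, a change of -3.54 ± 0.16 (adjusted p = 6.7e-06). Cox8b, a muscle and brown fat isoform of a cytochrome c oxidase subunit, read 468.9 and 418.6 against 16.4 and 24.3, a change of -3.67 ± 0.23 (adjusted p = 3e-05). The knockdown values of Cidea and Cox8b lay close to the dim end of the arrays, where the added 16 makes the fold change too small. With the lysozyme genes Lyz1 (-4.06) and Lyz2 (-3.62), these 3 genes made up the 5 largest falls of all genes tested on this scale. By the ratio of group means, C1qc (86.9-fold) and C1qa (53.4-fold), macrophage genes with dim knockdown values, exceeded Cox8b (21.8-fold).

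A second tier of brown fat genes fell by less. Cox7a1, another cytochrome c oxidase isoform of muscle and brown fat, read 1870 and 2343 in sh-scr rosi and 566.5 and 720.0 in sh-PRDM16 rosi (-1.69, adjusted p = 0.00044). Ppargc1a, which encodes PGC-1α, read 364.7 and 398.5 against 126 and 128.9 (-1.47, adjusted p = 0.00019). Each of these groups was tight against the distance between them. Ppara, the fatty-acid-sensing receptor, changed by -1.34, and Plin5, a droplet protein of oxidative tissues, by -1.31. Ppara had an adjusted p of 0.0698 where 1 was added to the intensities in place of 16. Dio2, the enzyme that activates thyroid hormone, read 180.3 and 177.3 against 105.7 and 93.8 (-0.75, adjusted p = 0.0055). Its other, dimmer probe sets changed by -0.54 and -0.32 and did not pass on either scale. In the fit over probe sets their adjusted p was 0.191 and 0.393 on the deposited scale. These 5 genes stayed past the threshold with any 1 array left out. Elovl3, a fatty acid elongase induced in cold brown fat, stayed bright at 4862 and 4855 against 2925 and 3398 (-0.62, adjusted p = 0.0316), and its adjusted p was 0.0895, 0.128, 0.137 and 0.0662 with each array left out. Fgf21, a secreted hormone, did not pass, at 216.2 and 228.3 against 268.9 and 241 (0.18, adjusted p = 0.548). The 2 higher members were Acot2, a mitochondrial thioesterase (0.56, with adjusted p of 0.0531, 0.136, 0.0608 and 0.122 for each array left out), and Eva1a, a membrane protein tied to autophagy, at 35.2 and 37.5 against 127.5 and 124.4 (1.44, adjusted p = 0.0006). Of 12 tested beige and lineage markers, 2 were lower (16.7%, beside 4.62% of all genes) and 0 higher. On centred arrays 4 were lower (33.3%, beside 12.3%). The 2 were the fatty acid transporter Slc27a1 (-0.77) and the purine receptor P2rx5 (-0.60). After leaving out each array in turn, 1, 0, 0 and 1 of them passed.

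**Figure D3:**
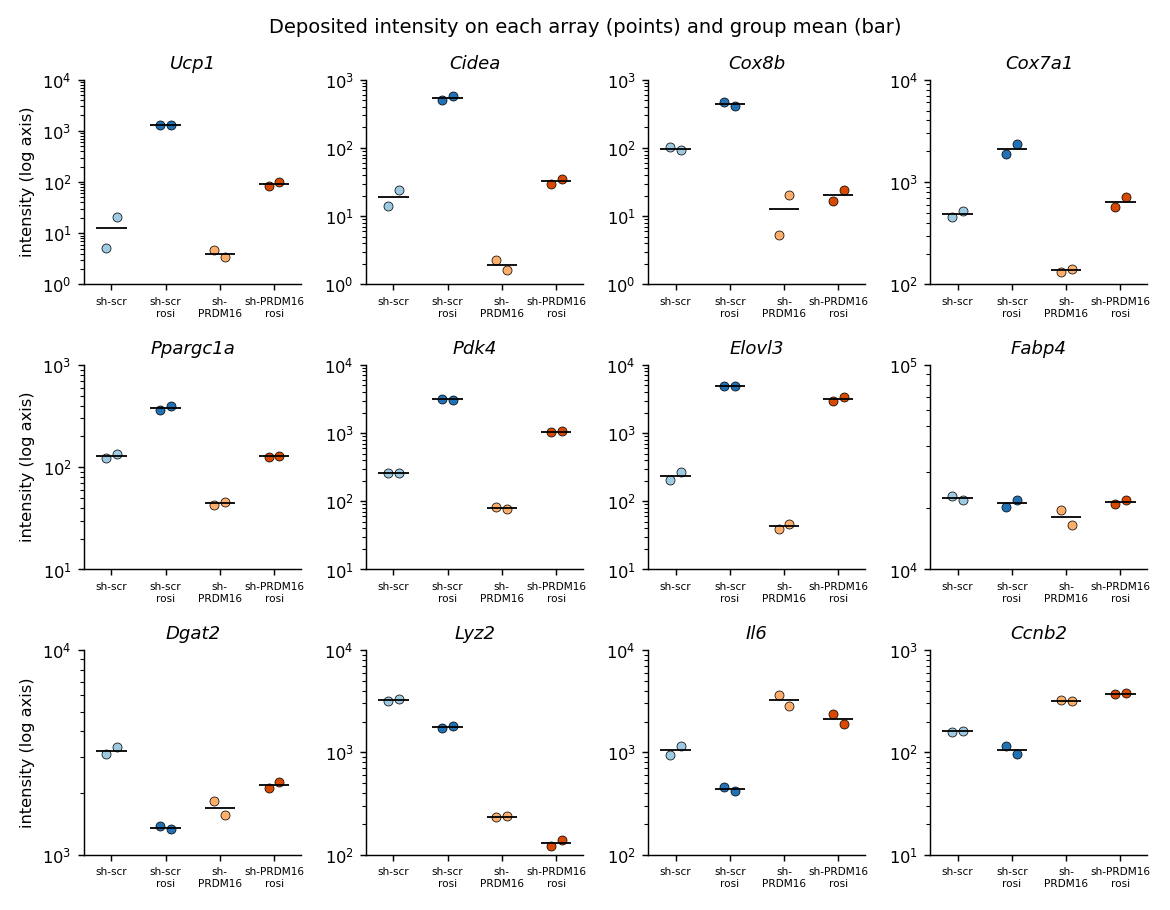
Deposited intensity of 12 genes on each of the 8 arrays (points, log axis) with the mean of each group of 2 (bar). In Ucp1, Cidea and Cox8b the sh-PRDM16 rosi arrays lie far below the sh-scr rosi arrays, Fabp4 is level between them, and Il6 and Ccnb2 are higher in the knockdown.

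PPARγ and its partners were called about as often as all genes on the deposited scale and more often on centred arrays. Among 25 tested PRDM16 partners and brown fat regulators, 3 were higher (12%, beside 10.6% of all genes) and 1 lower (4%, beside 4.62%). On centred arrays 5 were higher (20%, beside 12.2%) and 6 lower (24%, beside 12.3%). In the 4 fits with an array left out, 2, 1, 2 and 1 were higher. Pparg read 2559 and 2275 in sh-scr rosi and 1865 and 2047 in sh-PRDM16 rosi (-0.30, adjusted p = 0.166), and it passed as lower on centred arrays (-0.43, adjusted p = 0.00834). Cebpa (-0.28) and Cebpb (-0.20), which encode the C/EBP factors of fat cells, followed the same pattern, with adjusted p of 0.0245 and 0.026 on centred arrays. The control and knockdown arrays of these 3 genes did not overlap, which also holds for 18.2% of all genes in that direction and for 46.5% in the other. Ebf2, a marker and driver of brown precursors, read 192.8 and 201.2 against 161.7 and 179.4 and passed on neither scale. The 3 higher genes were Cebpd (0.76, adjusted p = 0.00611, but 0.0718 with the mean of its probe sets, of which the dimmer did not pass), Zfp423, a factor that holds fat cells in the white state (175.4 and 182.6 against 289.8 and 311.9, 0.70), and Foxc2 (0.56). Zfp423 missed the threshold without sh-scr rosi replicate 1 (adjusted p = 0.0532), sh-scr rosi replicate 2 (0.0588) or sh-PRDM16 rosi replicate 2 (0.0769). Foxc2 missed it in all 4 such fits (0.0562, 0.19, 0.14 and 0.0704).

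Targets of PPAR receptors were lower more often than all genes, while the share of higher ones was near that of all genes. Of 36 tested, 10 were lower (27.8%, beside 4.62% of all genes) and 5 higher (13.9%, beside 10.6%). On centred arrays 20 were lower (55.6%, beside 12.3%) and 5 higher (13.9%, beside 12.2%). The list median was -0.23 on the deposited scale. With 1 array left out, 8, 6, 5 and 9 were lower and 4, 1, 0 and 2 higher. Ehhadh, a bifunctional enzyme of peroxisomal fatty acid oxidation, read 1516 and 1431 against 271 and 343 (-2.21, adjusted p = 3.8e-05). Pdk4, the kinase that shuts down pyruvate dehydrogenase when fat is burnt, read 3201.5 and 3036 against 1019.7 and 1076 (-1.56, adjusted p = 0.00012). Pck1, an enzyme on the path from pyruvate to glycerol phosphate in fat cells, read 176.2 and 140.3 against 29.2 and 33.9 (-1.87, adjusted p = 0.00028). All 3 were lower on both knockdown arrays and kept the call with any 1 array left out. The droplet gene Cidec read 5565 and 5697 against 3104 and 3648 (-0.74, adjusted p = 0.00842), with adjusted p of 0.0531 without sh-scr rosi replicate 2 and 0.0578 without sh-PRDM16 rosi replicate 1. Other targets of the same receptors were level: Angptl4, a secreted lipase inhibitor, read 8221 and 8226 against 9012 and 8628 (0.10, adjusted p = 0.63). Fabp4 (0.02) and Adipoq (-0.02) had adjusted p of 0.923 and 0.904.

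Among the PPAR targets that rose were thioesterases, which split acyl-CoA into free fatty acid and CoA. Acot1 read 61.6 and 49 in sh-scr rosi and 219.7 and 150.6 in sh-PRDM16 rosi (1.48, adjusted p = 0.02), and Acot3 read 90.1 and 101.4 against 265.5 and 244.1 (1.28, adjusted p = 0.013). Both genes were higher on both knockdown arrays. Acot1 had adjusted p of 0.0838 without sh-scr rosi replicate 2 and 0.0824 without sh-PRDM16 rosi replicate 1, and Acot3 had 0.0508 without the latter. Acot4 (0.65), Acot2 (0.56) and Cpt1a, the gatekeeper of mitochondrial fatty acid entry (823 and 678.5 against 1071.9 and 1207.5, 0.60), completed the 5. With each array left out, the adjusted p was 0.0358, 0.198, 0.0818 and 0.142 for Acot4 and 0.0331, 0.183, 0.0583 and 0.147 for Cpt1a. Acot1 to Acot4 are close copies of each other, so their probe sets may share signal.

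Some genes of fatty acid oxidation and of mitochondria were lower by modest steps, and most did not pass on the deposited scale. Of 31 tested genes of mitochondrial fatty acid oxidation, 8 were lower and 3 higher on the deposited scale (median -0.30). These were 25.8% and 9.68%, beside 4.62% and 10.6% of all genes. On centred arrays 22 were lower (71.0%, beside 12.3%) and 2 higher (6.45%, beside 12.2%), with a median of -0.42. Acaa2, the thiolase of the last step of the spiral, read 4713 and 4806 against 2239 and 2722.5 (-0.94, adjusted p = 0.00451). Crat, carnitine acetyltransferase, read 841 and 822.2 against 440.3 and 468.4 (-0.85, adjusted p = 0.00719). Acadm, the medium-chain acyl-CoA dehydrogenase, read 6473 and 6668 against 3736 and 4375 (-0.70, adjusted p = 0.015). Acaa2 and Crat kept the call with any 1 array left out, and Acadm had adjusted p of 0.0826 without sh-scr rosi replicate 2 and 0.0821 without sh-PRDM16 rosi replicate 1. The count of lower members was 4, 2, 2 and 4 with each array left out. The 3 higher members were Cpt1a, Bdh1 (0.69), which interconverts ketone bodies, and Acad10 (1.15), which did not pass on centred arrays (adjusted p = 0.0514) or, with each array but sh-scr rosi replicate 1 left out, on the deposited one (0.191, 0.0834 and 0.135).

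Peroxisomes shorten very long and branched fatty acid chains. Of 37 tested enzymes and peroxins, 8 were lower and 2 higher (19 and 2 on centred arrays), and with each array left out 4, 4, 4 and 5 were lower. That was 21.6% lower and 5.41% higher, beside 4.62% and 10.6% of all genes (51.4% and 5.41% centred, beside 12.3% and 12.2%). Hacl1, which cleaves branched fatty acids, read 853.9 and 905.1 against 313.7 and 363.6 (-1.34, adjusted p = 0.00137). Nudt7, a peroxisomal CoA hydrolase, read 3329 and 3438 against 1491 and 1778.5 (-1.05, adjusted p = 0.00238). Pex16 (-0.69) and Pex11a (-0.57), needed for peroxisome formation and division, also fell, the latter with adjusted p of 0.108, 0.116, 0.147 and 0.0573 for each array left out. The higher members were Far1 (0.61), a reductase that makes fatty alcohols, and Acot4, and 1, 0, 0 and 0 members were higher with each array left out. For 74 tested subunits of the respiratory chain, 6 were lower and 0 higher on the deposited scale and 33 lower and 0 higher on centred arrays, and 2 of 74 had a positive centred change. Their median was -0.14 (-0.27 centred), and 8.11% were lower, beside 4.62% of all genes (44.6% beside 12.3% centred). Apart from Cox8b and Cox7a1, the falls were small, from Sdha of complex II at 4978 and 4872 against 2609 and 2986 (-0.82, adjusted p = 0.00855) to Ndufs5 of complex I (-0.48). Sdha had an adjusted p of 0.0529 without sh-PRDM16 rosi replicate 1, and 3, 3, 2 and 4 of the 74 subunits were lower with each array left out.

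The TCA cycle gave few calls on the deposited scale, and the breakdown of branched-chain amino acids gave more. On centred arrays the TCA cycle had the larger share of lower genes. Of 25 tested TCA cycle genes, 2 were lower (8.0%, beside 4.62% of all genes) and 1 higher (4.0%, beside 10.6%). On centred arrays 17 were lower (68.0%, beside 12.3%) and 1 higher (4.0%, beside 12.2%). After leaving out each array in turn, 1, 1, 0 and 1 were lower. Of 22 tested genes of branched-chain amino acid catabolism, 8 were lower and 1 higher (10 and 1 on centred arrays), and 3, 2, 2 and 3 were lower with each array left out. As shares of that list, 36.4% were lower and 4.55% higher, beside 4.62% and 10.6% of all genes. Centred, 45.5% were lower and 4.55% higher, beside 12.3% and 12.2%. Aldh6a1, which acts late in valine breakdown, read 1657 and 1647 against 501.7 and 735.8 (-1.42, adjusted p = 0.00245). Dbt, the core of the branched-chain ketoacid dehydrogenase, read 831.3 and 747.3 against 303.7 and 358.8 (-1.22, adjusted p = 0.00149). Both kept the call with any 1 array left out. Bcat1, the cytosolic transaminase of the first step, was higher (0.74, adjusted p = 0.02), although its adjusted p was 0.131, 0.0572 and 0.1 without sh-scr rosi replicate 2, sh-PRDM16 rosi replicate 1 and sh-PRDM16 rosi replicate 2.

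Lipid synthesis genes included some that were lower and none that passed as higher. Of 31 tested genes of fatty acid and cholesterol synthesis, 11 were lower (35.5%, beside 4.62% of all genes) and 0 higher (beside 10.6%). Their median was -0.26. On centred arrays 17 were lower (54.8%, beside 12.3%) and 0 higher (beside 12.2%). In the 4 fits with an array left out, 8, 7, 6 and 11 were lower. Thrsp, a nuclear protein that tracks lipogenesis, read 1763 and 1907 against 358.3 and 465.8 (-2.12, adjusted p = 9.9e-05). Acss2, which makes acetyl-CoA from acetate, read 4251 and 5068 against 1480.4 and 1858 (-1.48, adjusted p = 0.0011). Acacb, the acetyl-CoA carboxylase of mitochondria, read 349.6 and 341.6 against 125.9 and 157.4 (-1.20, adjusted p = 0.00101). The knockdown arrays held less of all 3 by more than the distance between replicates. In the sterol branch, Pmvk (-1.23), Mvk (-0.99), Mvd (-0.97) and Fdps (-0.84), which are enzymes of the mevalonate pathway, all fell. Mvk lost the call without sh-PRDM16 rosi replicate 1. Fasn, fatty acid synthase, passed on centred arrays alone (4470.1 and 4517 against 3136.5 and 3614, -0.41, adjusted p = 0.0786 on the deposited scale and 0.00535 centred).

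Most triglyceride storage genes did not pass on the deposited scale. Of 29 tested genes of triglyceride synthesis and lipid droplets, 8 were lower and 1 higher (19 and 1 on centred arrays), and 7, 6, 5 and 7 were lower with each array left out. The lower and higher shares were 27.6% and 3.45%, beside 4.62% and 10.6% of all genes (65.5% and 3.45% centred, beside 12.3% and 12.2%). Lpin1, a phosphatidic acid phosphatase, read 2801 and 2769 against 1314 and 1373.5 (-1.04, adjusted p = 0.00226). Gpd1, which makes glycerol phosphate, read 6511 and 6818 against 3316 and 3995 (-0.87, adjusted p = 0.0079), with an adjusted p of 0.0508 without sh-PRDM16 rosi replicate 1. Another, dimmer Gpd1 probe set was 0.50 higher and did not pass (adjusted p = 0.588 in the fit over probe sets). The higher gene was Dgat2, which joins the last acyl chain to make triglyceride, at 1383 and 1328 in sh-scr rosi and 2115 and 2260 in sh-PRDM16 rosi (0.68, adjusted p = 0.0115). The groups of Dgat2 did not overlap, which also holds for 46.5% of all genes in that direction. The call was lost without sh-scr rosi replicate 2 (change 0.65) or sh-PRDM16 rosi replicate 2 (0.64). Another Dgat2 probe set was 0.46 higher and did not pass (adjusted p = 0.159 in the fit over probe sets). Of 25 tested genes of glucose uptake and glycolysis, 3 were lower and 0 higher (8 and 0 on centred arrays). With each array left out, 3, 1, 1 and 2 of them were lower. They were led by Aldoc, an aldolase isoform, at 199 and 239.8 against 64.5 and 60.4 (-1.58, adjusted p = 0.00022).

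General adipocyte genes were lower in part, while Fabp4 and Adipoq were level. Of 24 tested, 8 were lower and 0 higher on the deposited scale and 18 lower and 0 higher on centred arrays (median -0.32 and -0.44), and with each array left out 5, 3, 2 and 7 were lower. Summed over the 24, the intensity was 116478 and 122181 on the sh-scr rosi arrays and 95849 and 106031 on the sh-PRDM16 rosi arrays. Rbp4, the secreted retinol carrier, read 3546 and 3916 against 1233.5 and 1399.7 (-1.49, adjusted p = 0.00039). Lipe, the hormone-sensitive lipase, read 1851 and 1861.5 against 1320.1 and 1617 (-0.34, adjusted p = 0.166) and passed on centred arrays alone (adjusted p = 0.0158). In bulk RNA, fewer adipocytes and less RNA of these genes per adipocyte cannot be told apart.

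Most white-fat-selective genes did not pass, and the hormones Lep and Retn fell. Of 20 tested, 4 were lower and 2 higher on the deposited scale and 7 lower and 1 higher on centred arrays, and 4 were lower and 0 higher with any 1 array left out. Lep, the hormone leptin, read 63.7 and 60.7 in sh-scr rosi and 4.1 and 2.8 in sh-PRDM16 rosi (-2.01, adjusted p = 0.00076). Retn, the hormone resistin, read 1420 and 1593 against 400.7 and 498.2 (-1.72, adjusted p = 0.00049). Both adipokines were lower on both knockdown arrays. Slc7a10, an amino acid transporter of white fat cells, read 208.3 and 213.3 against 87.8 and 108.3 (adjusted p = 0.00229). Agt, angiotensinogen, overlapped between groups at 180.2 and 208.5 against 163.4 and 229.5 and did not pass on either scale (deposited adjusted p = 1). The 2 higher members were Psat1, a serine synthesis enzyme (0.55), and Cdkn2a (0.49), whose adjusted p was 0.0498 and, on centred arrays, 0.0501.

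Markers of macrophages and other leukocytes were the list that fell most. Of 24 tested, 20 were lower and 0 higher on each scale, with a median of -1.95 against 0.15 for all genes, and with each array left out 18, 17, 19 and 19 were lower. Those lower were 83.3% of the list on each scale, beside 4.62% of all genes (12.3% centred). Lyz2, macrophage lysozyme, read 1724 and 1820.4 in sh-scr rosi and 121.3 and 138.7 in sh-PRDM16 rosi (-3.62, adjusted p = 1e-06). Ctss, the lysosomal protease cathepsin S, read 985.5 and 864.8 against 129.7 and 155.1 (-2.57, adjusted p = 1.8e-05). Tyrobp, a signalling adaptor of myeloid cells, read 217.4 on each control array against 24.1 and 10.9 (-2.83, adjusted p = 6.4e-05). In these 3 genes both control arrays stood several times above both knockdown arrays. Lyz1 (3887 and 3691 against 203.1 and 221.6, -4.06) is a near-identical copy of Lyz2 and may share its signal, and another of its probe sets was dim and did not pass. The complement genes C1qa (105.4 and 124.1 against 2.7 and 1.6) and C1qc (112.1 and 96.5 against 0.9 and 1.5), the lectin Clec4d (-3.13) and the Fc receptor Fcgr3 (-2.54) fell as well. Of the macrophage genes outside the list, Cd5l, a secreted macrophage protein (-3.39), and Mmp12, macrophage elastase (-2.94), were among the 15 largest falls. The 4 tested members that did not pass on either scale were Clec7a, Aif1, Csf1r and Srgn.

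The summed intensity of the 33 measured macrophage and leukocyte markers was 10410 and 10108 on the sh-scr rosi arrays and 1929 and 2185 on the sh-PRDM16 rosi arrays. The ranges were far apart. Cd163, Cd3e, Cd3g, Cd79a and Itgam were under 16 on all 4 arrays, so the T cell and B cell markers of the list were at the dim end. This list was lower on the same 2 knockdown arrays as the thermogenic and lipid genes, and its part in those results was not tested. Trem2, counted here among white-fat-selective genes and known from lipid-handling macrophages, fell with them (45 and 71.1 against 4.1 and 7.3, -1.75), although a second, dimmer probe set was higher (12.4 in sh-scr rosi and 35 in sh-PRDM16 rosi on average, 0.85, adjusted p = 0.0255 in the fit over probe sets), and the mean of both did not pass (adjusted p = 0.106). Without the drug, the same list had 0 higher and 20 lower members, beside 1.99% higher and 15.5% lower among all genes (0 and 19 on centred arrays, beside 8.77% and 12.5%). Steap4, a metalloreductase of fat cells and macrophages, was lower by 2.50 with the drug, at 2657 and 2718 against 423.6 and 501.3 (adjusted p = 2.4e-05).

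**Figure D4:**
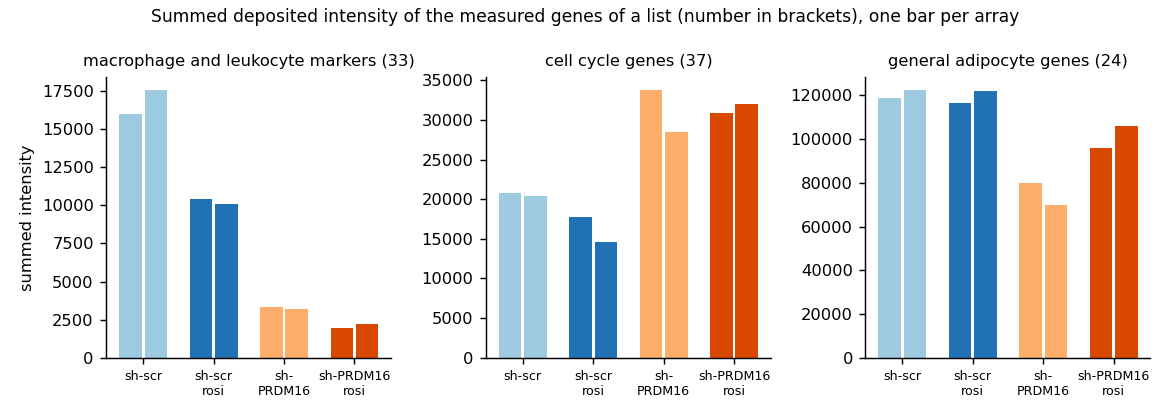
Summed deposited intensity over the measured members of 3 gene lists on each of the 8 arrays, 1 bar per array. The macrophage sum is 10410 and 10108 in sh-scr rosi and 1929 and 2185 in sh-PRDM16 rosi, the cell cycle sum runs the other way, and the adipocyte sum is moderately lower in the knockdown.

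Cell cycle genes were the list that rose most. Of 36 tested, 32 were higher and 0 lower on each scale, 30 of them on both, with a median of 1.05 (0.93 centred), and with each array left out 31, 25, 27 and 29 were higher. Those higher were 88.9% of the list on each scale, beside 10.6% of all genes (12.2% centred). Cdc20, the activator of the anaphase-promoting complex, read 568.5 and 404.2 in sh-scr rosi and 1661 and 1918 in sh-PRDM16 rosi (1.86, adjusted p = 0.00031). Ccnb2, cyclin B2, read 114 and 96.3 against 371 and 378.8 (1.69, adjusted p = 9.9e-05). Aurka, a spindle kinase, read 204.6 and 185.7 against 591.4 and 616.8 (1.56, adjusted p = 0.00013). Both knockdown arrays were well above both control arrays. Top2a (1.40), Mki67 (1.17), Cdk1 (1.10) and Rrm2 (1.02), which serve DNA topology, proliferation, mitotic entry and nucleotide supply, were higher. The replication licensing genes Mcm2 to Mcm6 rose by 0.67 to 1.08, Mcm5 on the deposited scale alone. For each array left out, the adjusted p of Mcm4 was 0.0424, 0.169, 0.068 and 0.142 and that of Mcm5 was 0.0139, 0.126, 0.0986 and 0.0159. Foxm1 and Ccnd1, cyclin D1, passed on neither scale. Ect2 (1.67) and Melk (1.59), which act in cell division and lie outside the list, were among the 15 largest rises. The summed intensity of the 37 measured members was 17725 and 14643 in sh-scr rosi and 30877 and 32081 in sh-PRDM16 rosi. More dividing cells and more of these transcripts per cell cannot be told apart here.

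Some genes of growth arrest were higher, and most did not pass. Of 26 tested p53 targets and arrest genes, 8 were higher and 2 lower (7 and 4 on centred arrays), with a median of 0.41, and with each array left out 5, 2, 3 and 2 were higher. That was 30.8% higher and 7.69% lower, beside 10.6% and 4.62% of all genes (26.9% and 15.4% centred, beside 12.2% and 12.3%). Pmaip1, a p53-inducible promoter of apoptosis, read 98.1 and 68.1 against 337.7 and 398.9 (1.97, adjusted p = 0.00028). Cdkn1a, the inhibitor p21, read 4299.9 and 4481.5 against 5802.5 and 6397.5 (0.47, adjusted p = 0.0438), and its adjusted p was 0.147, 0.157, 0.0928 and 0.221 for each array left out. Both pairs were apart, that of Pmaip1 much further. Ckap2, a spindle protein that is also counted here (1.43), rose, and Cdkn2b, an inhibitor of cyclin D kinases, fell (535.3 and 607.4 against 286 and 337.9, -0.84, adjusted p = 0.00554).

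Feedback genes of the MAP kinase pathway included Dusp9, among the largest rises. Dusp9, a phosphatase that inactivates ERK kinases, read 55.9 and 52.2 in sh-scr rosi and 258.7 and 310.3 in sh-PRDM16 rosi (2.10, adjusted p = 0.00024), and its 3 probe sets all passed with changes from 1.71 to 2.10. Fos, an immediate early factor, read 273 and 304.7 against 586.7 and 669.6 (1.08, adjusted p = 0.00131). Etv4, an ETS factor downstream of ERK, was dim and rose from 6.5 and 7.2 to 57.1 and 29.5 (1.34, adjusted p = 0.00368). All 3 kept the call with any 1 array left out. Of 23 tested genes in this list 6 were higher (26.1%, beside 10.6% of all genes) and 0 lower on the deposited scale. On centred arrays 6 were higher (26.1%, beside 12.2%) and 2 lower (8.7%, beside 12.3%). After leaving out each array in turn, 3 were higher in every case. Dusp6 and Jun were the 2 lower on centred arrays (adjusted p = 0.0408 and 0.014).

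A few inflammatory genes rose sharply while interferon genes did not. Of 31 tested cytokines and acute-phase genes, 7 were higher and 1 lower (6 and 3 on centred arrays), with a median of 0.17 close to that of all genes, and 5, 6, 5 and 6 were higher with each array left out. Higher members made up 22.6% and lower ones 3.23%, beside 10.6% and 4.62% of all genes (19.4% and 9.68% centred, beside 12.2% and 12.3%). Il6, interleukin 6, read 461.7 and 420.4 in sh-scr rosi and 2346 and 1870.1 in sh-PRDM16 rosi (2.21 ± 0.18 SE, adjusted p = 0.00013). Il11, a cytokine of the same family, read 185.9 and 146 against 424.3 and 426.7 (1.29, adjusted p = 0.00112). Ptgs2, the inducible cyclooxygenase, read 1521 and 1205 against 3079.7 and 2916 (1.14, adjusted p = 0.00258). All 3 were higher on both knockdown arrays. Socs3, the feedback inhibitor of cytokine signalling, read 459.4 and 479.5 against 1021 and 1256 (1.24, adjusted p = 0.00689), and its 3 probe sets were all higher. Ccl5 (0.63) and Cxcl1 (0.57) also rose, Cxcl1 not on centred arrays (adjusted p = 0.0714). In the 4 fits with an array left out, the adjusted p was 0.058, 0.13, 0.0593 and 0.133 for Ccl5 and 0.0834, 0.146, 0.156 and 0.0387 for Cxcl1. The lower gene was Steap4. Of 37 tested genes of the interferon response and antigen presentation, 0 were higher and 2 lower (5.41%) on each scale. Among all genes 10.6% were higher and 4.62% lower, and 12.2% and 12.3% on centred arrays. The share of lower genes was thus near or below that of all genes. The 2 lower were the immunoproteasome subunits Psmb8 (-0.83) and Psmb9 (-0.79).

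Genes of the unfolded protein and ATF4 responses were higher in part. Of 38 tested, 11 were higher and 1 lower (14 and 3 on centred arrays), with a median of 0.32, and 7, 3, 5 and 4 were higher with each array left out. As shares, 28.9% were higher and 2.63% lower, beside 10.6% and 4.62% of all genes (36.8% and 7.89% centred, beside 12.2% and 12.3%). Creld2, an ER chaperone-like protein, read 627.3 and 548.4 against 1086 and 1179.7 (0.93, adjusted p = 0.00362). Phgdh, the first enzyme of serine synthesis, read 1232 and 1015 against 2089 and 2143.5 (0.91, adjusted p = 0.00434). Slc7a5, an importer of large neutral amino acids, read 489.2 and 490.4 against 818.3 and 836.3 (0.74, adjusted p = 0.00801). Each rose on both knockdown arrays and kept the call with any 1 array left out. The lower gene was Atf3 (-0.65), which passed with only sh-PRDM16 rosi replicate 2 left out among these fits (0.0599, 0.0881, 0.0966 and 0.0363), and Atf4 and Hspa5, the ER chaperone BiP, did not pass on either scale. Of 34 tested antioxidant and glutathione genes, 4 were higher (11.8%, beside 10.6% of all genes) and 3 lower (8.82%, beside 4.62%). On centred arrays 4 were higher (11.8%, beside 12.2%) and 9 lower (26.5%, beside 12.3%). With each array left out, 4, 1, 2 and 1 were higher and 2, 1, 1 and 2 lower. Nqo1, a quinone reductase, read 107.8 and 55.6 against 211.6 and 204.7 (1.25, adjusted p = 0.00801), and Gsta3, a glutathione transferase, read 74.9 and 71.4 against 31.5 and 32.3 (-0.90, adjusted p = 0.00226).

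Markers of other cell types that such cultures can hold moved in both directions. Of 26 tested smooth muscle and contractile genes, 7 were higher and 1 lower (8 and 1 on centred arrays), and with each array left out 6, 4, 3 and 4 were higher. The higher and lower shares were 26.9% and 3.85%, beside 10.6% and 4.62% of all genes (30.8% and 3.85% centred, beside 12.2% and 12.3%). Cnn1, calponin, read 587.9 and 470.2 against 1240.1 and 1154 (1.16, adjusted p = 0.00149). Actg2, smooth muscle γ-actin, read 410.1 and 307.9 against 794.2 and 898.6 (1.21, adjusted p = 0.0021). The summed intensity of the 27 measured members was 66379 and 61350.4 in sh-scr rosi and 77585 and 81308 in sh-PRDM16 rosi, higher on both knockdown arrays. The lower gene was Cspg4, a pericyte proteoglycan (-0.92). Acta1, skeletal muscle α-actin, read 906.7 and 654.1 against 2605 and 2739.9 (1.77, adjusted p = 0.0003). It is close in sequence to the smooth muscle actins, and its probe set may share their signal. It was 1 of 13 skeletal muscle markers tested, of which 1 was higher and 1 lower (7.69% each, beside 10.6% and 4.62% of all genes). Among the 33 measured, 6 were under 16 on all 4 arrays, including Myf6, Myh2, Ryr1 and Tnnt3.

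Of 22 tested preadipocyte and progenitor markers, 5 were higher and 1 lower (7 and 3 on centred arrays), and with each array left out 5, 1, 2 and 1 were higher. Has1, a hyaluronan synthase, read 67.1 and 44.9 against 183.3 and 192.9 (1.52, adjusted p = 0.00107) and kept the call in all 4 such fits. Thy1 (0.56) and Klf4 (0.55) were also higher, although neither kept the call in every fit with an array left out. The lower member was Wnt5a (-0.59), which did not keep it either. Dlk1, the classical preadipocyte marker, passed on neither scale. In this list 22.7% were higher and 4.55% lower, beside 10.6% and 4.62% of all genes (31.8% and 13.6% centred, beside 12.2% and 12.3%). The summed intensity of the 26 measured members ran from 23091 to 25770 in sh-scr rosi and from 27736 to 30845 in sh-PRDM16 rosi. Of 49 tested genes of the extracellular matrix and fibroblasts, 5 were higher and 3 lower (5 and 4 on centred arrays), a share near that of all genes, and 3, 1, 2 and 1 were higher and 1 lower in each case with each array left out. Nid2, a basement membrane nidogen, read 541.3 and 506 against 960.2 and 1056 (0.92, adjusted p = 0.0041). Of 20 tested endothelial markers, 3 were lower and 0 higher (4 and 0 on centred arrays), led by Nos3, endothelial nitric oxide synthase, at 362.2 and 315.7 against 121.1 and 130 (-1.32, adjusted p = 0.00104), and 2, 2, 1 and 2 were lower with each array left out. Pecam1 and Cdh5 passed on neither scale, and Erg and Vwf were under 16 on all 4 arrays. Krt19, a keratin of simple epithelia and mesothelium, rose from 198.5 and 236.5 to 864.5 and 783.5 (1.85, adjusted p = 0.00036). Of the 24 mesothelial and epithelial markers measured, 9 were under 16 on all 4 arrays, among them Epcam, Cdh1 and Wt1. The part of these other cell types in the results above was not tested.

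The remaining large changes belong to no list. Hs3st1, a heparan sulfate sulfotransferase, read 77.2 on each sh-scr rosi array and 366.2 and 415.4 in sh-PRDM16 rosi (2.12, adjusted p = 9.9e-05). Apoc4, an apolipoprotein, read 44.5 and 35.1 against 184.3 and 189.5 (1.87, adjusted p = 0.00013). Tmem45b, a transmembrane protein, read 2589 and 2293 against 432 and 442.1 (-2.44, adjusted p = 2.6e-05). All 3 were separated by several times the distance between replicates. Tnmd (1.73), a membrane glycoprotein of tendon and fat, Serpinb1a (1.66), an inhibitor of neutrophil proteases, Crabp1 (1.65), a retinoic acid binding protein, and Dyrk3 (1.61), a kinase, completed the largest rises. Of 14 tested housekeeping genes, 2 were higher and 1 lower (2 and 2 on centred arrays), and 0 were higher in each of the 4 fits with an array left out, where Polr2a and Gusb had adjusted p from 0.0614 to 0.165. Among the housekeeping genes 14.3% were higher and 7.14% lower, beside 10.6% and 4.62% of all genes (14.3% each centred, beside 12.2% and 12.3%). Actb, Hprt and Tbp passed on neither scale.

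The knockdown effect was then set beside that in cells without rosiglitazone, which shares no array with it. Across the 9294 genes the log2 changes with and without the drug correlated at r = 0.686, a description over genes that are not independent. On the deposited scale 142 genes were higher and 374 lower in both and 18 were called in opposite directions, and on centred arrays 484, 759 and 20. Lyz1 changed by -4.06 with and without the drug, Thrsp by -2.12 and -2.77, and Pdk4 by -1.56 and -1.53. The difference of the effects was tested in the same fit, and 56 genes were more positive (0.603%) and 6 more negative (0.0646%) under rosiglitazone on the deposited scale. The centre of all genes differed by 0.33 between the effects on that scale and by 0.02 after centring, where 1 gene was more positive (0.0108%) and 4 were more negative (0.043%). Those 5 were also called on the deposited scale, which leaves 57 called there alone. With 1 of the 8 arrays left out, 0 to 67 genes were more positive and 0 to 7 more negative. Both counts were 0 without sh-PRDM16 replicate 2 (limma, with 1351 and 102 genes at an unadjusted p below 0.05). The more positive count was 32 and 20 without sh-scr replicates 1 and 2, 20 without sh-scr rosi replicate 2, 24 without sh-PRDM16 replicate 1, and 34 and 10 without sh-PRDM16 rosi replicates 1 and 2.

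Ucp1 and Cidea had the most negative differences of the 5. Without the drug, Ucp1 read 5.2 and 20.6 in sh-scr and 4.6 and 3.4 in sh-PRDM16, and Cidea read 14 and 24.2 against 2.3 and 1.6. All of these values were near the dim end, so the untreated arrays leave little room for a fall. The difference of the effects was -3.15 for Ucp1 and -2.59 for Cidea (both with an adjusted p of 0.00943, and 0.0351 and 0.0216 on centred arrays). Lama5, a laminin chain, read 44.7 and 37.3 against 7.1 and 15.2 with the drug and 14.9 and 12.6 against 41.3 and 44.1 without, a difference of -2.06 (adjusted p = 0.00943, and 0.0351 centred). Its other probe set did not pass for the effect under rosiglitazone, and neither did the mean of both (adjusted p = 0.161). Arhgap20, a GTPase-activating protein, read 112 and 121 against 84.7 and 87.9 with the drug and 57.4 and 56.4 against 128.6 and 103.7 without (-1.22, adjusted p = 0.0331, and 0.0351 centred). Dgat2 was the more positive gene, at 1383 and 1328 against 2115 and 2260 with the drug and 3114 and 3339 against 1819 and 1562 without (1.61, adjusted p = 0.00943, and 0.0216 centred). It rose with the knockdown under the drug and fell by 0.93 without it. Without sh-PRDM16 replicate 2, the adjusted p of the difference was 0.09 for Ucp1, Cidea, Dgat2 and Arhgap20 and 0.094 for Lama5, and that of Arhgap20 was below the threshold only without sh-scr rosi replicate 1 (0.0468). Cox8b, already at 102.8 and 92.5 against 5.2 and 20.5 without the drug, did not pass for the difference on either scale (adjusted p = 0.0616, and 0.135 centred).

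**Figure D5:**
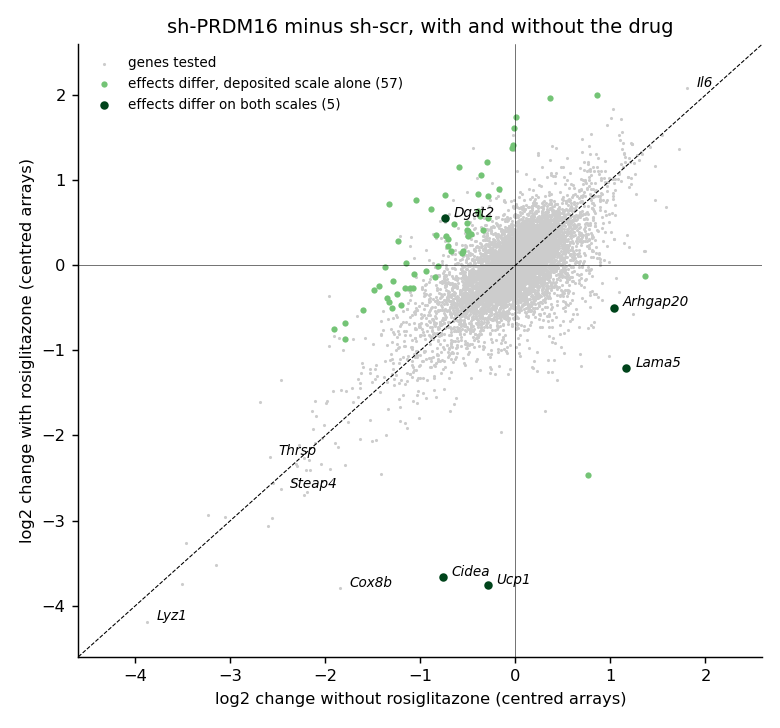
Log2 change of each gene with rosiglitazone against its change without (sh-PRDM16 minus sh-scr, arrays centred on their medians), with the line of equal change dashed. Dark points are the 5 genes whose changes differ on both scales and light green points the 57 on the deposited scale alone. Ucp1 and Cidea lie far below the line, Dgat2 lies above it, and Lyz1 lies close to it.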

How the data were processed

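Expression was measured on 8 Affymetrix mouse arrays, 2 per group, and groups were taken from the deposited labels. The values are linear probe set intensities deposited by the authors. How the authors summarized, background-corrected and scaled them is not given in the sources used here, and no counts of molecules lie behind them, so the number of arrays limits the precision. Arrays differed in median intensity by up to 0.38 on the log2 scale.

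Of 22690 probe sets, 20380 had 1 gene symbol in the platform annotation, 691 had several, 1555 were not listed there and 64 were control probe sets. For each of the 12393 genes the probe set of highest mean log2 value was used, and the lowest 25% of genes were left out, which left 9294. Tests used log2(intensity + 16), which understates changes of dim genes, and limma 3.58.1 in R 4.3.3, with 1 mean per group over all 8 arrays (4 residual degrees of freedom, prior 5.31). P-values were adjusted by the Benjamini-Hochberg method over all genes tested, with a threshold of 0.05. The same fit was run on arrays centred on their medians. Values per array are on the deposited scale. Named are the 15 largest rises and falls called on both scales without overlap, a set of fixed genes, up to 4 leading members of each list and members whose effects differ with and without the drug. Other genes named were chosen after their values were seen. Members and lists were chosen with earlier results of these data known. On simulated data 200 of the 9294 genes were changed, with independent normal noise and no difference in brightness between arrays. The comparison under rosiglitazone then recovered 72% of genes lower by 1 on the log2 scale and 70.4% of those higher by 1. It recovered 96.6% of those higher by 2 and 11.4% of those higher by 0.5, with 5.37% false calls. These shares describe the test under those settings and do not measure the error in the deposited arrays. The alternatives tried were other scalings, filters, added constants, probe set rules, priors, a replicate block, the 4 rosiglitazone arrays alone and leaving out each array.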

Additional observations from a re-analysis of the deposited data

Results flagged for a closer look

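In 22 named genes the knockdown effect differed between cells with and without rosiglitazone (limma test of the difference on the deposited scale, adjusted p from 0.00943 to 0.0445). Values are log2 differences, effect with the drug minus effect without it, and 5 of the 22 also passed on centred arrays. Those 5 were Ucp1 at -3.15, Cidea at -2.59, Lama5 at -2.06, Arhgap20 at -1.22 and Dgat2 at 1.61. The centre of all genes lay at 0.33 on the deposited scale, so the other positive differences are to be read against it.

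On the deposited scale alone, 2610528A11Rik differed by -2.92. It fell by 2.34 with the drug. Without it the change of 0.58 did not pass (adjusted p = 0.185), and values were dim, at 22.4 and 3.1 in sh-scr and 27.3 and 21.9 in sh-PRDM16. Scgn differed by 2.36, Mtarc1 by 2.13, Apoc4 by 2.05, Tnmd by 1.94 and Hs3st1 by 1.45. Among genes of MAP kinase feedback, Dusp9 differed by 1.92 and Etv4 by 1.82. In lipid metabolism, the thioesterase Acot3 differed by 2.06, the elongase Elovl3 by 1.48, the peroxisomal transporter Abcd2 by 1.39, the droplet genes Cidec and Lgals12 by 1.24 and 1.20. For Elovl3 the knockdown effect was -0.62 with the drug and -2.10 without it, and for Cidec it was -0.74 and -1.98. Both were lower in the knockdown in each setting, by less with the drug. The acute-phase gene Orm1 differed by 1.42, the adhesion molecule Mcam by 1.33, and Ivd and Mccc1, enzymes of leucine breakdown, by 1.19 and 1.13.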

How the results depend on the processing

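Against 981 higher and 429 lower genes under rosiglitazone, 1140 were lower on centred arrays and 1157 after quantile normalization. An added constant of 64 gave 1765 higher and 644 lower, and a trended prior 1950 and 659. With no filter 492 were higher, and with the lower 50% of genes left out 1630. Leaving out each rosiglitazone array gave 238 to 627 higher and 225 to 339 lower. Leaving out either untreated sh-scr array gave 782 and 401, and either untreated sh-PRDM16 array 1298 and 506. General adipocyte genes lower numbered 18 on centred arrays, 17 after quantile normalization, 5 with no filter and 2 to 7 with each rosiglitazone array left out. With the lower 50% of genes left out, 4 brown-fat-selective and 4 macrophage genes were lower, since that filter removes most other members. With each rosiglitazone array left out, 8 to 8 brown-fat-selective and 17 to 19 macrophage genes were lower, and 25 to 31 cell cycle genes higher.

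Against 56 more positive and 6 more negative differences of the effects, 1 was more positive on centred arrays, 2 and 3 were called after quantile normalization, 1025 and 12 with the lower 50% left out, 13 and 0 with an added constant of 1 (73 more negative at an unadjusted p below 0.05), 772 and 28 with one of 64, and 1272 and 25 with a trended prior. With no filter limma called 0 and 0 (2230 and 172 at an unadjusted p below 0.05). Leaving out each of the 8 arrays gave 0 to 67 and 0 to 7. The cause of these shifts was not tested. The difference for Ehhadh turned to -0.60 (adjusted p = 0.037) with an added constant of 64.

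Equal replicate numbers did not pair the arrays (correlations of deviations -0.0224 to 0.0534). With the replicate number as a block, 834 genes were higher and 414 lower and 77 and 9 effects differed, and no call of a named gene under rosiglitazone changed. The 4 rosiglitazone arrays alone gave 877 and 440.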
